A study of Mus musculus with 7 samples.

Results

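The regions described here are stretches of the mouse genome that carried chromatin state E2 or E3 in leukaemia cells given the inhibitor GSK-LSD1 and state E4 in the same kind of cells given the solvent DMSO. The cells came from bone marrow of BALB/c background and carried 2 mutant genes introduced by retrovirus, CSF3R, whose protein binds the granulocyte growth factor G-CSF, and CEBPA, which encodes a transcription factor needed to make granulocytes. GSK-LSD1 inhibits the histone demethylase LSD1 (gene Kdm1a). The dose was 4 nM for 48 h, the controls received DMSO alone, and both groups carried both mutant genes. Each treatment had 1 library for each of 3 histone marks, H3K4me1, H3K4me3 and H3K27Ac. A single input library completed the set of 7. The authors deposited 1 segmentation per treatment, which gives every 200 bp bin of the genome 1 of 6 states. The regions were chosen by these state labels alone, which is the readout of the study. Bins of chromosomes 1 to 19 and X that were E2 or E3 in GSK-LSD1 and E4 in DMSO were merged where adjacent, and stretches of at least 600 bp were kept. This gave 6386 regions covering 7.62 Mb, of 72.6 Mb of E4 in DMSO and 136042 DMSO segments of all states. They hold 38078 bins, or 82.1% of the 46408 bins that made this change. Those 46408 bins were 12.8% of all 363094 E4 bins in DMSO, which is the share fixed by the choice of regions and is not a finding. At the length limit, 1739 regions of 600 bp were kept and 2041 of 400 bp were left out.

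H3K4me1 is typical of enhancers and of the flanks of active promoters, H3K4me3 of promoters and H3K27Ac of active regulatory elements. LSD1 takes methyl groups off mono- and dimethylated lysine 4 of histone H3 and is brought to enhancers of blood cells by GFI1, a repressor, together with CoREST proteins. The sources used here do not say which marks define each state, and the same number may stand for other marks in the other segmentation. By position, E3 covered most of the genome and is called background, E2 was the broad state next to it, and E5 and E6 are called start-type, since 11426 of 21045 annotated starts of protein-coding genes lay in them in DMSO. Of 38756 E4 segments of at least 600 bp in DMSO, 71.8% had E5 or E6 on at least 1 side and 27.2% had E2 or E3 on both. A region that left E4 is called lost below, which refers to the state label and not to a measured level of any mark. With 1 segmentation per treatment there is nothing to test the treatment against, and p-values are absent. The 95% Wilson intervals cover counting error only, regions are not replicates, and sequencing depth is unknown because the files hold state labels.

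Sequences upstream of 6 gene starts are shown first because the starts that lay in lost regions differed in base composition by the state they took. They are the 250 bases before the start, 5′ to 3′ on the gene's strand, of the genes in the longest regions that became E3 and in the longest that became E2, from RefSeq promoter sequences of GRCm38.p6. Capitals mark CG dinucleotides. The first group, in regions that became background, is Dbx2 (chr15:95654772-95655021, minus strand, 9 CG), Tmtc1 (chr6:148444353-148444602, minus strand, 23 CG) and Dchs2 (chr3:83127277-83127526, plus strand, 22 CG).
Dbx2: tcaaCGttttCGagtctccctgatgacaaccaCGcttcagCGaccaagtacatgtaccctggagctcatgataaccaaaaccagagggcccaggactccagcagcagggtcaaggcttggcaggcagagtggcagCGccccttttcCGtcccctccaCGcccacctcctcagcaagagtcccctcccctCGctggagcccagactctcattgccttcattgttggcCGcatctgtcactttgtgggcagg
Tmtc1: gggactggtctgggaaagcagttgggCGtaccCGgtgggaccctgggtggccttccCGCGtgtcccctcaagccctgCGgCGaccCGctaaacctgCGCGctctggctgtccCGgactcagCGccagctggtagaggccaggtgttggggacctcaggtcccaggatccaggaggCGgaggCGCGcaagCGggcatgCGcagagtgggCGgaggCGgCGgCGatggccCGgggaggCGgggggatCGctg
Dchs2: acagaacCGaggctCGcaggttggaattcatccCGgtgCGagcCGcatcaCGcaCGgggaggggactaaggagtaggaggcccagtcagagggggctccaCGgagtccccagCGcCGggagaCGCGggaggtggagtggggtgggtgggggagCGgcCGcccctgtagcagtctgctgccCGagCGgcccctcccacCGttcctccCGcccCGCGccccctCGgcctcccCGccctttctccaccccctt
The second group, in regions that became E2, is Lrrc26 (chr2:25289661-25289910, plus strand, 2 CG), Angptl2 (chr2:33215711-33215960, plus strand, 9 CG) and Slc41a3 (chr6:90618996-90619245, plus strand, 7 CG).
Lrrc26: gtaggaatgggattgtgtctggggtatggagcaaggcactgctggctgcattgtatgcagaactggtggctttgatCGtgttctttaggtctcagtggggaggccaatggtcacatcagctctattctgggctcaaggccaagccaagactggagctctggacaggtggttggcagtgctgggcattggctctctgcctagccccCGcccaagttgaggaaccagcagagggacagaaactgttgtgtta
Angptl2: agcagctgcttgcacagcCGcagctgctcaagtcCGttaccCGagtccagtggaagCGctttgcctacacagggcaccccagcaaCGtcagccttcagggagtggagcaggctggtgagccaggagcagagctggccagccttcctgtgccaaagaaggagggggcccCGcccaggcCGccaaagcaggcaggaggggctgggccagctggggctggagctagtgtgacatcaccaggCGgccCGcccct
Slc41a3: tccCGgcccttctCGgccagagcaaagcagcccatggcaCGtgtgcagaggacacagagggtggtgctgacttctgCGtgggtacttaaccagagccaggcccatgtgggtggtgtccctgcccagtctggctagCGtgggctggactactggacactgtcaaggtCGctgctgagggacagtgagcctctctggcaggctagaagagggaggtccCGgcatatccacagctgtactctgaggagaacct
The stretches of the first 5 genes lay wholly inside their region, while that of Slc41a3 began upstream of its region, which starts at 90619201. Tmtc1 and Dchs2 had 72.0% G and C over these bases, Angptl2 66.8%, Slc41a3 61.2%, Dbx2 58.8% and Lrrc26 54.8%. Dbx2 encodes a homeobox transcription factor, Tmtc1 an endoplasmic reticulum mannosyltransferase, Dchs2 a cadherin, Lrrc26 an accessory subunit of a potassium channel, Angptl2 a secreted angiopoietin-like protein and Slc41a3 a member of a magnesium transporter family.

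Most lost regions became the broad state and not background. Of the 6386 regions, 4100 (64.2%; 63.0 to 65.4) were E2 over their whole length in GSK-LSD1, 2230 (34.9%; 33.8 to 36.1) were E3, and 56 held both. By area, 34.8% (34.4 to 35.3) became E3. Regions were short. The median was 1000 bp, the interquartile range ran between 600 and 1400 bp, 870 reached 2000 bp, and the longest had 7000 bp. Regions that became E2 and regions that became E3 shared a median of 1000 bp, but the longest was 7000 bp for E2 and 4600 bp for E3.

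Many of the regions were whole E4 segments that left the state from end to end. This held for 3082 regions (48.3%; 47.0 to 49.5), and the remaining 3304 were parts of a segment. Seen against all E4, such segments were few, at 7.95% of the 38756 DMSO segments of at least 600 bp. Among those 38756 segments, 45.3% still held some E4 in GSK-LSD1 and 64.9% held some E5 or E6. Regions that became E3 were whole segments in 64.9% (62.9 to 66.9) and regions that became E2 in 39.3% (37.8 to 40.8). The regions lay in 6281 distinct segments, of which 103 held more than 1 region.

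What lay beside a segment in DMSO separated the segments that vanished. A segment with E2 or E3 on both sides is called an island here, and a segment with E5 or E6 on at least 1 side a shoulder. Of 10532 islands of at least 600 bp, 2710 (25.7%; 24.9 to 26.6) vanished, against 357 of 27844 shoulders (1.28%; 1.16 to 1.42). The vanished share was smaller at greater length in both classes. Among islands the share was 46.3% at 600 to 800 bp, 27.5% at 1000 to 1400 bp, 16.7% at 1600 to 2400 bp and 7.76% at 2600 bp and over. Among shoulders it was 2.15%, 1.32%, 0.904% and 0.377% over the same lengths. A short island has fewer bins to change, so length enters this count by construction. At each length, however, the island share was more than 10 times the shoulder share. E4 segments of 200 or 400 bp, too short to hold a region, had the highest shares, 58.4% of islands and 3.85% of shoulders.

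**Figure D1:**
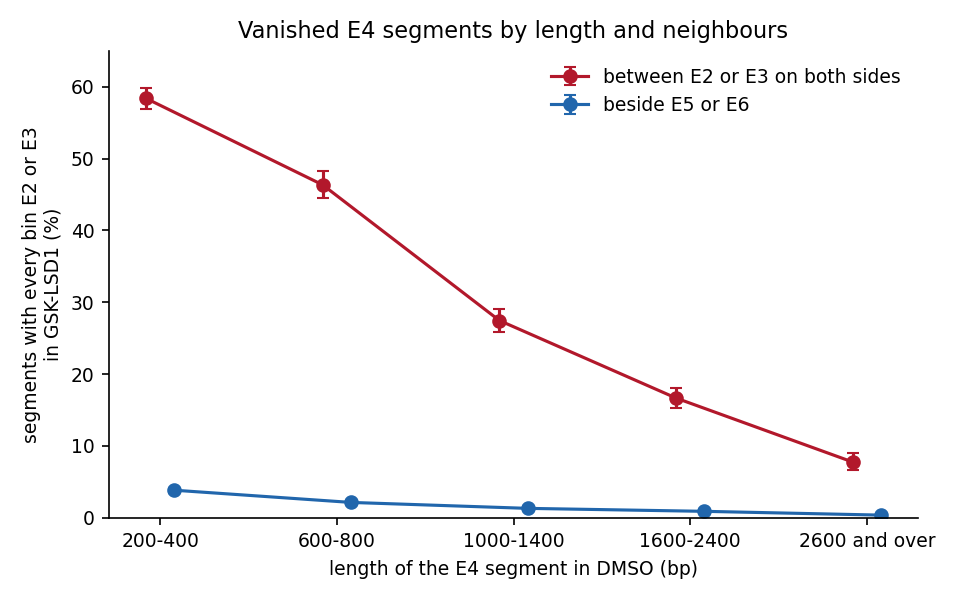
Share of DMSO E4 segments with every bin in E2 or E3 in GSK-LSD1 (y axis, percent) by segment length (x axis, bp), for segments between E2 or E3 on both sides (red) and beside E5 or E6 (blue); bars are 95% Wilson intervals. The red points fall across lengths between 58.4% and 7.76%, and every blue point lies under 4%.

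Lost parts of shoulders lay on the outer edge. Of 2112 shoulder parts with a single start-type side, 1977 (93.6%; 92.5 to 94.6) sat at the border away from E5 or E6, 6 at the border with it and 129 at neither. The segments that held a part also carried other states in GSK-LSD1. E4 remained in 84.6% of these cases, E5 or E6 was present in 41.1% and E1 in 20.1%. The start-type bin next to a shoulder was still E5 or E6 in GSK-LSD1 beside 1629 of 2521 segments' borders (64.6%; 62.7 to 66.5). Beside shoulders that vanished whole, it was still start-type at 26 of 349 borders (7.45%; 5.13 to 10.7). There it was E2 or E3 at 180 borders (51.6%) and E4 at 133 (38.1%). Thus the few shoulders that vanished were mostly next to a start-type bin that had also changed state.

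**Figure D2:**
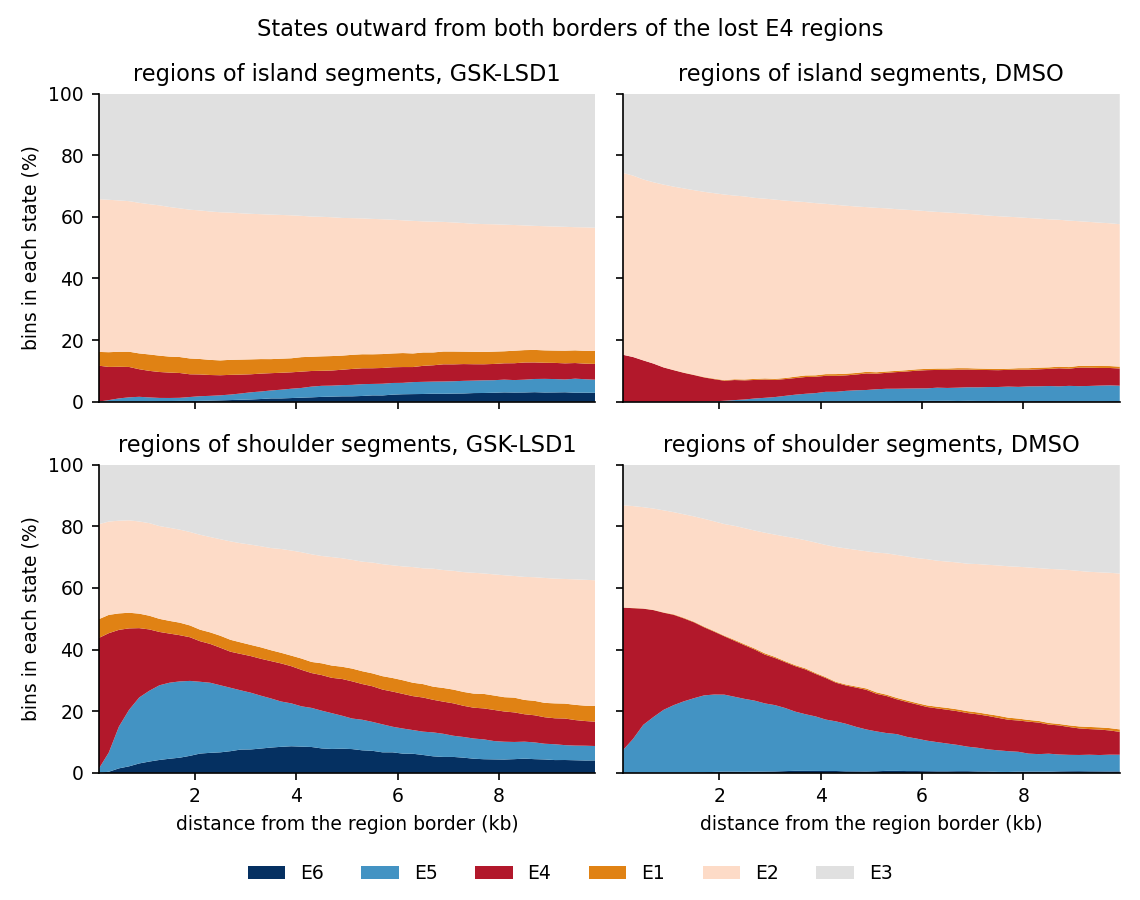
Share of 200 bp bins in each state (y axis, percent) at 0 to 10 kb outward from both borders of the lost regions (x axis, kb), in GSK-LSD1 (left) and DMSO (right), for regions of island segments (top, 3833 regions) and of shoulder segments (bottom, 2512 regions). Around islands E2 and E3 fill most of the area in both treatments. E1 and E6 are visible around both classes in GSK-LSD1 and almost absent in DMSO.

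The bins outward from the regions differed between treatments as well. In the first bin beyond an island region, 49.6% were E2, 34.3% E3 and 11.6% E4 in GSK-LSD1, against 59.0% E2, 25.8% E3 and 15.2% E4 in DMSO. E1 was 4.46% of these bins in GSK-LSD1, while in DMSO the definition of an island leaves no E1, E5 or E6 there. Beyond shoulder regions, at 1000 to 1200 bp, E5 was 23.0% and E6 3.66% of bins in GSK-LSD1, against 21.9% and 0.0995% in DMSO. E4 at that distance was 19.9% in GSK-LSD1 and 29.3% in DMSO.

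Lost regions lay farther from gene ends than E4 that was kept. The gene table has both ends of 49554 genes of any type, and a region more than 2.5 kb from every end is called distal. The median distance of lost regions to the nearest gene end was 4299 bp, with an interquartile range between 1191 and 12985 bp, and 4005 (62.7%; 61.5 to 63.9) were distal. Stretches of at least 600 bp that were E4 in both segmentations, 12715 in number, had a median of 2246 bp and 46.7% (45.8 to 47.6) were distal. The 19982 E4 stretches that became E5 or E6 had a median of 2496 bp and 49.9% distal. The 9639 that became E1 lay farther away still, at a median of 6758 bp and 73.7% distal (72.8 to 74.5). Lost regions thus fell between E4 that became E1 and E4 that was kept. Median lengths were close, at 1000 bp for the lost, kept and start-type stretches and 1200 bp for E1. A gene end was held by 561 lost regions (8.78%).

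**Figure D3:**
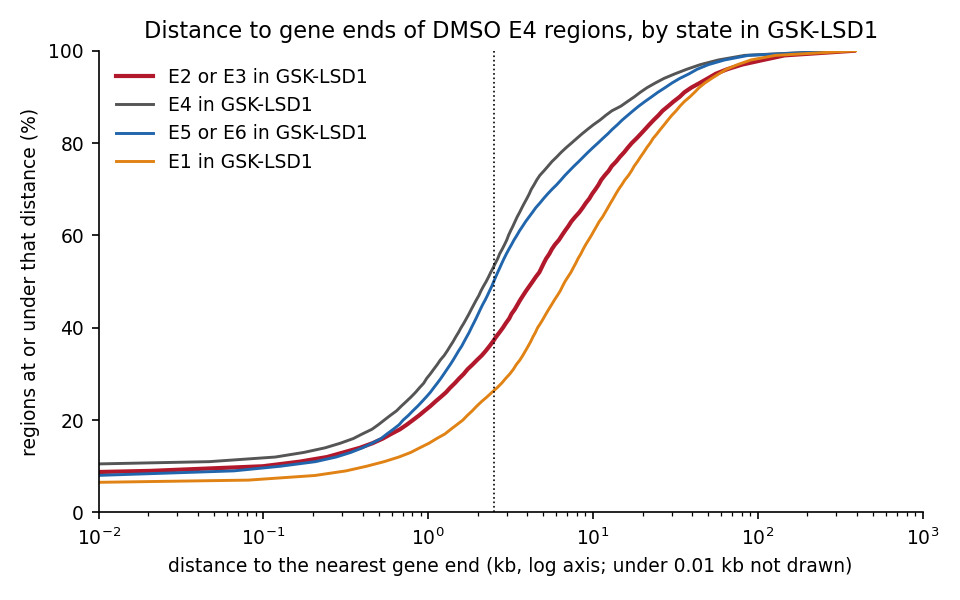
Cumulative share of E4 stretches of at least 600 bp (y axis, percent) by distance to the nearest gene end (x axis, kb, log scale), for stretches that became E2 or E3 (red), stayed E4 (grey), became E5 or E6 (blue) or became E1 (orange) in GSK-LSD1; the dotted line is the 2.5 kb limit. At the limit the red curve lies between the E1 curve and the curves for kept and start-type stretches, with 62.7% of lost regions beyond it.

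The distance differed between groups of lost regions. Whole vanished segments had a median of 6708 bp and 70.1% (68.5 to 71.7) were distal, against 3093 bp and 55.8% (54.1 to 57.5) for parts. Island regions had a median of 7106 bp and shoulder regions 2342 bp. The 357 shoulders that vanished whole were nearest, at 1260 bp. Regions that became E3 were spread more widely than those that became E2, with an interquartile range between 920 and 16276 bp against 1451 and 11793 bp. Measured to gene starts alone, on 6184 regions with a start on their chromosome in the promoter table, the median was 18.3 kb. It was 4704 bp for kept E4. These starts are of protein-coding genes only, while the ends above are of genes of any type, so the gaps are not compared. To the ends of protein-coding genes, the medians were 7904.5 bp for lost regions and 3048 bp for kept E4. Of the lost regions, 3627 (56.8%; 55.6 to 58.0) overlapped the body of a protein-coding gene. The share was higher in each other kind of E4, at 61.6% (60.8 to 62.4) of kept stretches, 64.8% of those that became start-type and 65.9% of those that became E1. The nearest gene of any type was protein-coding for 4584 regions (71.8%) and a lncRNA for 1306 (20.5%), and 395 regions lay more than 100 kb from any protein-coding gene.

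Few lost regions touched start-type chromatin. In DMSO, 368 (5.76%; 5.22 to 6.36) were directly next to an E5 or E6 bin. The shares were 30.8% for kept E4, 76.6% for E4 that became start-type and 18.9% for E4 that became E1. The median distance of lost regions to E5 or E6 was 7000 bp in GSK-LSD1, against 7200 bp in DMSO, and E5 or E6 was nearer in GSK-LSD1 for 3918 regions, farther for 1449 and equally far for 1019. The 2 destinations differed in their surroundings. Regions that became E2 had start-type chromatin at a median of 4400 bp in GSK-LSD1, against 5400 bp in DMSO. For regions that became E3 it lay at 27700 bp in GSK-LSD1, against 21300 bp in DMSO. Within 20 kb, the area of E5 and E6 was larger in GSK-LSD1 around 66.7% (65.2 to 68.1) of E2 regions and smaller around 9.07%. It was larger around 28.8% (26.9 to 30.7) of E3 regions, smaller around 19.1%, and equal around the rest. Around kept E4 it was larger in 81.4%. Altogether 1113 lost regions (17.4%) had no E1, E4, E5 or E6 within 20 kb in GSK-LSD1. They were 861 of the 2230 E3 regions (38.6%) and 240 of the 4100 E2 regions (5.85%). Around the 357 vanished shoulders, start-type area was smaller in GSK-LSD1 for 257 (72.0%; 67.1 to 76.4).

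The longest regions show these patterns at single places (positions in GRCm38). The longest, 7 kb of E4 that was wholly E2 in GSK-LSD1 (chromosome 4, 147414401 to 147421400), was a whole segment with E2 on both sides, in no gene, 0.944 kb from the lncRNA gene Gm46898 and 21.7 kb from the zinc finger gene Zfp982. The next, 6.4 kb on chromosome 5 (148831801 to 148838200), lay in no gene, 33.4 kb from Katnal1, a microtubule-severing ATPase of the katanin family. It was a shoulder that vanished whole. Its nearest start-type bin was 28.6 kb away in GSK-LSD1, against 0 kb in DMSO. A 5.6 kb segment 72.7 kb from Mrm1, a mitochondrial ribosomal RNA methyltransferase, vanished into 4.6 kb of E2 and 1 kb of E3. Other long regions were parts. In Pwp2, which encodes a ribosome biogenesis factor, 5.6 kb of a 9.2 kb segment between 2 start-type stretches became E2. Its borders in GSK-LSD1 were E4. Beside Hes5, a repressor downstream of Notch signalling, 5.4 kb of 5.8 kb was lost, 2.03 kb from the gene. Near Pold2, a subunit of DNA polymerase delta, the region of 5.4 kb lay 1.75 kb from the gene end and 1 kb from start-type chromatin in GSK-LSD1, against 1.2 kb in DMSO. In the body of Sipa1l1, a GTPase-activating protein for Rap, 5.2 kb of a 9.8 kb segment was lost, and start-type chromatin lay 2.8 kb away in GSK-LSD1 and 79.4 kb away in DMSO. A region of 4.8 kb, 38.7 kb from the nuclear export receptor gene Xpo1, had start-type chromatin 0.4 kb away in GSK-LSD1 and 37.4 kb away in DMSO.

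The 5 longest regions that became mostly background were whole segments. Srgap1, a GTPase-activating protein of Slit and Robo signalling, held 4.6 kb in its body (chromosome 10, 121833001 to 121837600), 52.0 kb from its nearest end. Atl1, which encodes the membrane-shaping GTPase atlastin, held 4.2 kb. At Dbx2 the 4.2 kb segment (chromosome 15, 95651401 to 95655600) covered the gene start, with E3 on both sides in DMSO and in GSK-LSD1. At Kcnt1, a sodium-activated potassium channel, 4 kb (chromosome 2, 25861401 to 25865400) covered a gene end, and the nearest start-type chromatin was 115 kb away in GSK-LSD1 and 6.6 kb away in DMSO. Beside Dlgap3, a postsynaptic scaffold gene, 4 kb next to an E5 stretch was lost while the E5 bin stayed, 1.11 kb from the gene. Among whole segments that became E2, 4.8 kb lay over the lncRNA gene Gm32708 and 3.87 kb from Tnk1, a non-receptor tyrosine kinase, 4.4 kb lay 38.6 kb from Gli2, a transcription factor of Hedgehog signalling, and 4.4 kb lay in Pls1, a plastin that bundles actin. Near gene ends, long parts lay at Rhpn1, where 5.4 kb held a gene end, and 0.206 kb from Ppp1r1b, which encodes the phosphatase inhibitor DARPP-32. The 5.4 kb there also overlapped the lncRNA gene Gm38970.

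Gene starts in E4 became E3 more often, and E2 less often, than E4 bins in general. The lost regions that held a start mostly became background. Of 21045 starts in the promoter table, which covers 17274 of 21631 protein-coding genes and none on chromosome 18, 1320 lay in E4 in DMSO. Of these, 544 (41.2%) were E5 or E6 in GSK-LSD1, 450 (34.1%) were still E4, 131 (9.92%) were E3, 119 (9.02%) E1 and 76 (5.76%) E2. Of all E4 bins, 4.34% became E3 and 8.44% became E2, counted at any length as the starts above are. Inside the lost regions, which leave out shorter stretches, lay 181 starts (13.7%) of 165 genes, beside 38078 of all 363094 E4 bins. A start was held by 2.62% (2.25 to 3.05) of lost regions and 2.70% (2.42 to 2.996) of kept stretches. The region was E3 for 106 of these genes (64.2%; 56.7 to 71.2) and E2 for 57. It was a whole segment for 122 (73.9%; 66.8 to 80.0). E5 or E6 lay within 2.5 kb of the start for 18 of the 165 genes in GSK-LSD1 and 25 in DMSO. Start-type starts almost never did this, with 26 of 11426 starts in E5 or E6 (0.228%; 0.155 to 0.333) found in E2 or E3 in GSK-LSD1.

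The starts that went to background were richer in CG dinucleotides than those that went to E2. The CG content is given as the number observed over the number expected from base composition, over 250 bases before and 50 after the start, and 0.6 is the usual limit for a CpG island. Starts are grouped here by the state of their own bin, and 2 of the E3 starts, those of Cldn11 and Adamts14, lay in regions that held both states. The median was 0.634 for 121 starts in lost regions that were E3 and 0.363 for 60 that were E2. With 1 start per gene it was 0.584 for 108 genes and 0.333 for 57, so the E3 median then lay under 0.6. The share at or over 0.6 was 52.1% (43.2 to 60.8) of the E3 starts and 10% (4.66 to 20.1) of the E2 starts. Starts that stayed E4 had a median of 0.437, those that became E5 or E6 0.465, and those that became E1 0.239. Starts that were E3 in both segmentations had 0.195, and starts in E5 in DMSO had 0.783. Counted by start, the E3 starts in lost regions thus had a higher median than every other class of E4 start named here, and a lower one than E5 starts.

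**Figure D4:**
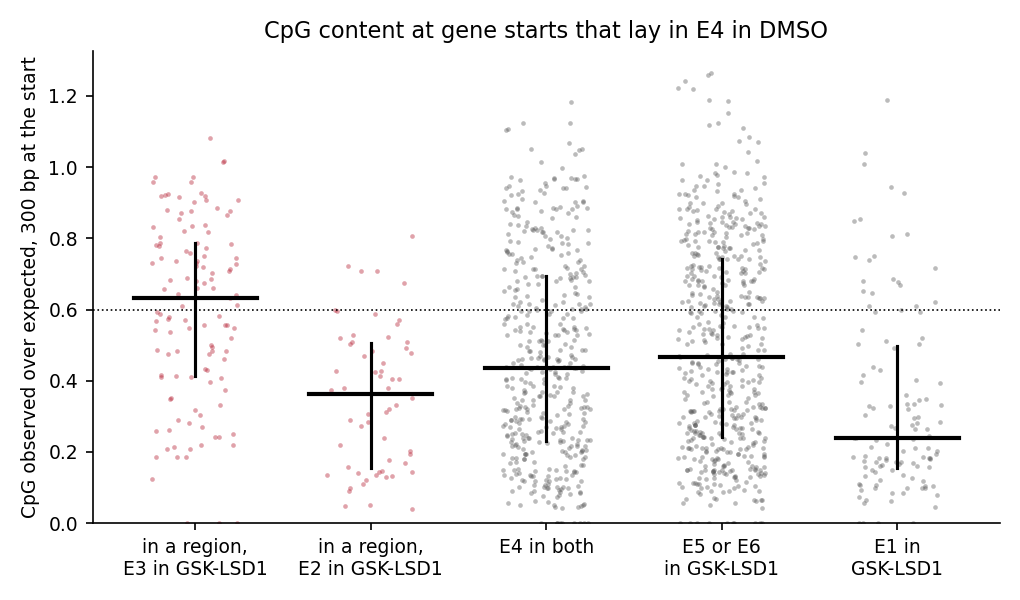
CG dinucleotides observed over expected (y axis, ratio) in 300 bp at gene starts that lay in E4 in DMSO, by state of the start's bin in GSK-LSD1: in a lost region and E3 (121 starts) or E2 (60), E4 in both (450), E5 or E6 (544) and E1 (119). Points are starts, horizontal bars medians, vertical bars interquartile ranges, and the dotted line is 0.6. The E3 median of 0.634 lies above the line and the E2 median of 0.363 below it. With 1 start per gene, not drawn, the E3 median is 0.584, below the line.

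Among the 12 genes with the longest region over a start, 8 had a region that became E3 and 4 one that became E2. Dbx2 and Tmtc1, with regions of 4.2 and 3.8 kb, both had no start-type chromatin within 2.5 kb in either treatment. The ratios were 0.416 at Dbx2 and 0.785 at Tmtc1. Dchs2 and Gm10710, which overlaps it on the opposite strand, shared 1 region of 3.6 kb, with ratios of 0.746 and 0.718. Ttll7, a tubulin polyglutamylase, the transcription factor gene Casz1 and 6330403K07Rik had regions of 3.4 kb, and Mical2, an actin-oxidising enzyme, of 3 kb. Casz1 had the highest ratio of the 12, 1.08. The E2 regions were those of Lrrc26 (3.6 kb, ratio 0.142), Angptl2 (3.4 kb, 0.272), Slc41a3 (3.2 kb, 0.290) and Ppfibp2, a liprin (3.2 kb, 0.170). For 10 of the 12 genes the region was an island segment that vanished whole, for Slc41a3 a vanished shoulder and for Lrrc26 a part. Named after their values were seen, further starts in E3 regions were those of Sall1 (3 kb, with 3 annotated starts), Bsx (2.6 kb), Fev (2.6 kb) and Pax9 (1 kb), each a transcription factor gene, picked singly and not counted as a group. In E2 regions lay the starts of the cytokine gene Il1b (2.2 kb), Spp1, which encodes osteopontin (1.8 kb), the T cell receptor subunit gene Cd3e (1.6 kb) and an inner start of Vegfa (1.6 kb). These were picked singly in the same way. Transcription factor genes also had starts in E2 regions, among them Hoxa10, Sox15 and Nhlh2. Immune genes also had starts in E3 regions, among them Cr2 and Cxcr3.

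Around protein-coding genes, lost regions were common but small. Within 20 kb of either end, 16374 genes had E4 in DMSO, and 5981 of them held a lost region, which is 36.5%, the background for the lists that follow. Of these 5981, 4515 (75.5%) had 1 region, and the median area was 1.2 kb of a median 6.6 kb of E4 in DMSO. Most genes with a lost region had more start-type chromatin nearby. Start-type area was larger in GSK-LSD1 for 80.9% (79.9 to 81.8) of genes with a region and smaller for 8.04%, against 90.3% (89.7 to 90.9) and 4.26% of the 10393 genes with E4 and no region. The largest lost area lay around Mthfsd, at 9.4 kb, where E4 covered 8 kb in GSK-LSD1 and 16 kb in DMSO. Zfp978 lost 8.6 kb, with 4 kb of E4 in GSK-LSD1 and 12.6 kb in DMSO. The NMDA receptor gene Grin1 and Unkl had 8.2 kb each, Srrm3, a splicing factor, and Rhpn1 8 kb each. Anapc2, a subunit of the anaphase-promoting complex, had 7.8 kb, the neuronal transcription factor gene Neurod2 7.6 kb and Trim67 7.2 kb. Of the 9 genes named here, start-type area was larger in GSK-LSD1 at 8 and equal at Zfp978.

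Most genes with E4 in DMSO, 10393 of 16374, held no lost region. Of the LSD1-CoREST list, which includes Kdm1a and Gfi1, 6 of 14 genes held one. Genes picked by name for the drug and the leukaemia model had none. Cebpa, Csf3r, Kdm1a and Gfi1 all had 0 kb. Their E4 area was 6 kb in GSK-LSD1 and 8 kb in DMSO at Cebpa, 14 and 8.6 kb at Csf3r, 2.4 and 3.6 kb at Kdm1a, and 0.4 and 10 kb at Gfi1. Start-type area was larger in GSK-LSD1 at each of them, with 22 kb against 5.2 kb at Gfi1. It was larger for 86.9% of all 16374 genes with E4 in DMSO. Of 20 gene lists, 6 had a larger share of genes with a lost region than the background of 36.5%, and the interval left out that value in 3. All 3 were below it, in 20 kb windows and with the gene body added. In windows of 5 kb or 50 kb the intervals of these 3 lists included the background. Over all 16374 genes with E4 in DMSO, E4 area was smaller in GSK-LSD1 at 8833 and larger at 7122.

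Interferon response genes had the highest share, 10 of the 17 with E4 in DMSO (58.8%; 36.0 to 78.4), an interval that includes the background. In 50 kb windows 14 of 18 held one (77.8%; 54.8 to 91.0), above the 53.4% of all genes. The genes of unrelated tissues had a still higher share there, 12 of 14 (85.7%). In 5 kb windows and with the gene body added, the interferon interval included the background. Around Rsad2, the antiviral enzyme viperin, 4.4 kb was lost, and E4 covered 3 kb in GSK-LSD1 and 5.4 kb in DMSO. Around Gbp2, an interferon-induced GTPase, 3.6 kb was lost, with 2.4 kb of E4 in GSK-LSD1 and 9.8 kb in DMSO. Start-type area at Gbp2 was 5.8 kb in GSK-LSD1 and 2.2 kb in DMSO. Ifit2, an inhibitor of viral translation, lost 2.8 kb and the chemokine gene Cxcl10 2.6 kb. E4 at Cxcl10 covered 6.8 kb in GSK-LSD1 and 6.6 kb in DMSO. The windows of Ifit1, Ifit2 and Ifit3 lie in 1 cluster, and counting them once gives 8 of 15 (53.3%) in 20 kb windows. The count in 50 kb windows holds them singly. Over the whole list E4 area was smaller in GSK-LSD1 for 12 genes and larger for 4, beside 8833 and 7122 of all 16374.

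Transcription factors of myeloid cells had the lowest share, 2 of 20 (10%; 2.79 to 30.1). The 2 were Irf8, a regulator of monocyte fate, with 1.8 kb, and the immediate early gene Egr1 with 1.6 kb. E4 area was smaller in GSK-LSD1 at 16 of these 20 genes and larger at 4, beside 8833 and 7122 of all 16374. Erythroid and megakaryocyte genes leaned the same way, with 12 smaller and 3 larger. LSD1-CoREST genes had 11 and 3, and the BCL2 family 10 and 3. Ribosomal protein genes went the other way (8 smaller, 11 larger), as did housekeeping (6 and 9) and monocyte and macrophage genes (8 and 9). In 50 kb windows the share of myeloid transcription factor genes with a region was 40%, against 53.4% of all genes. Feedback genes of MAPK signalling had 2 of 16 (12.5%; 3.50 to 36.0), namely Etv4 with 5 kb and Spry4 with 2.2 kb. Cytosolic ribosomal protein genes had 3 of 20 (15%; 5.24 to 36.0), among them Rpl3 with 2.2 kb. Granulocyte maturation genes had 3 of 17 (17.6%; 6.19 to 41.0). They were Mmp9, a protease of late granules, with 2.6 kb, and the calgranulin genes S100a8 and S100a9 with 1.2 and 0.6 kb. E4 area was 15.2 kb in GSK-LSD1 and 20.8 kb in DMSO at Mmp9, 4.4 and 3.4 kb at S100a8, and 4.2 and 1.2 kb at S100a9. Start-type area at Mmp9 was 10.6 kb in GSK-LSD1 and 3.8 kb in DMSO. Over the list E4 area was smaller at 8 genes and larger at 8. JAK/STAT genes, which act downstream of CSF3R, had 4 of 21 (19.05%; 7.67 to 40.0). The largest was at the kinase gene Tyk2, with 3 kb lost and E4 over 5.6 kb in GSK-LSD1 and 23.2 kb in DMSO. Start-type area there was 29.6 kb in GSK-LSD1 and 17.8 kb in DMSO, so the lost area is a small part of the E4 difference. Stat6, Il6ra and Pim2 lost 2.2, 1.4 and 0.6 kb. At Il6ra E4 nevertheless covered 21.6 kb in GSK-LSD1 and 9.6 kb in DMSO. Over the list E4 area was smaller in GSK-LSD1 at 16 genes and larger at 5. Of the azurophil granule genes 2 of 9 held a region, Ctsg and Mpo with 0.6 kb each. The region at Ctsg also lies in the window of Mcpt8, a gene of the mast cell, basophil and eosinophil list. The same place thus counts in both lists.

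Genes of the LSD1-CoREST complex had 6 of 14 (42.9%; 21.4 to 67.4), led by the deacetylase gene Hdac1 with 4.4 kb, then Gse1 with 2 kb, Hdac2 with 1.8 kb and Phf21a with 1.4 kb. H3K4 methylation enzymes had 6 of 15 (40.0%), with at most 1.4 kb, at Kdm5b and Setd1a. Progenitor and leukaemia genes had 5 of 20 (25%), among them Hoxa10 with 3 kb, Erg with 1.8 kb, Hoxa9 with 1.6 kb and the stem cell factor receptor Kit with 0.8 kb. The 1.6 kb at Hoxa9 is the region over the Hoxa10 start, so 1 place counts for both genes. E4 covered 26.2 kb in GSK-LSD1 and 24.2 kb in DMSO at Hoxa10, and 21 and 18.2 kb at Hoxa9. Over the list E4 was smaller at 12 genes and larger at 8. Monocyte and macrophage genes had 4 of 17 (23.5%), with 2.6 kb around the lysosomal glycoprotein gene Cd68. Those 2.6 kb are the region over the start of another gene, Sox15. E4 around Cd68 covered 1.6 kb in GSK-LSD1 and 9 kb in DMSO. Start-type area at Cd68 was 22.2 kb in GSK-LSD1 and 17.6 kb in DMSO. At Irf8, with a region of 1.8 kb, E4 covered 9.6 kb in GSK-LSD1 and 6 kb in DMSO, and over the list E4 was smaller at 8 genes and larger at 9. Cell cycle genes had 7 of 20 (35.0%) and the BCL2 family 4 of 13 (30.8%), with 5.6 kb at the death gene Hrk. Antigen presentation genes had 6 of 16 (37.5%), close to the background.

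Markers of other blood and tissue cells were also among the genes with lost regions. Lymphocyte genes had 7 of 17 (41.2%; 21.6 to 64.0), among them the B cell factor Ebf1 with 3 kb and Cd79b, a B cell receptor subunit, with 2.6 kb, where E4 covered 0 kb in GSK-LSD1 and 2.6 kb in DMSO. Erythroid and megakaryocyte genes had 5 of 15 (33.3%), with 4 kb at the platelet receptor gene Gp1bb. Mast cell, basophil and eosinophil genes had 4 of 14 (28.6%), with 3.2 kb at the protease gene Prss34, and stromal and endothelial genes 2 of 7 (28.6%). At Prss34 E4 nevertheless covered 8.2 kb in GSK-LSD1 and 3.8 kb in DMSO. Over the list of Prss34 E4 was smaller at 8 genes and larger at 6. Genes of unrelated tissues had 6 of 14 (42.9%; 21.4 to 67.4), among them Nphs1, a kidney podocyte protein, with 4 kb, the lung surfactant gene Sftpc with 3 kb, and Alb and Afp, liver genes in a shared neighbourhood, with 0.8 kb each. At Nphs1 E4 nevertheless covered 18.2 kb in GSK-LSD1 and 9.8 kb in DMSO. Over the unrelated-tissue list E4 was smaller at 7 genes and larger at 7. Housekeeping genes had 4 of 15 (26.7%).

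**Figure D5:**
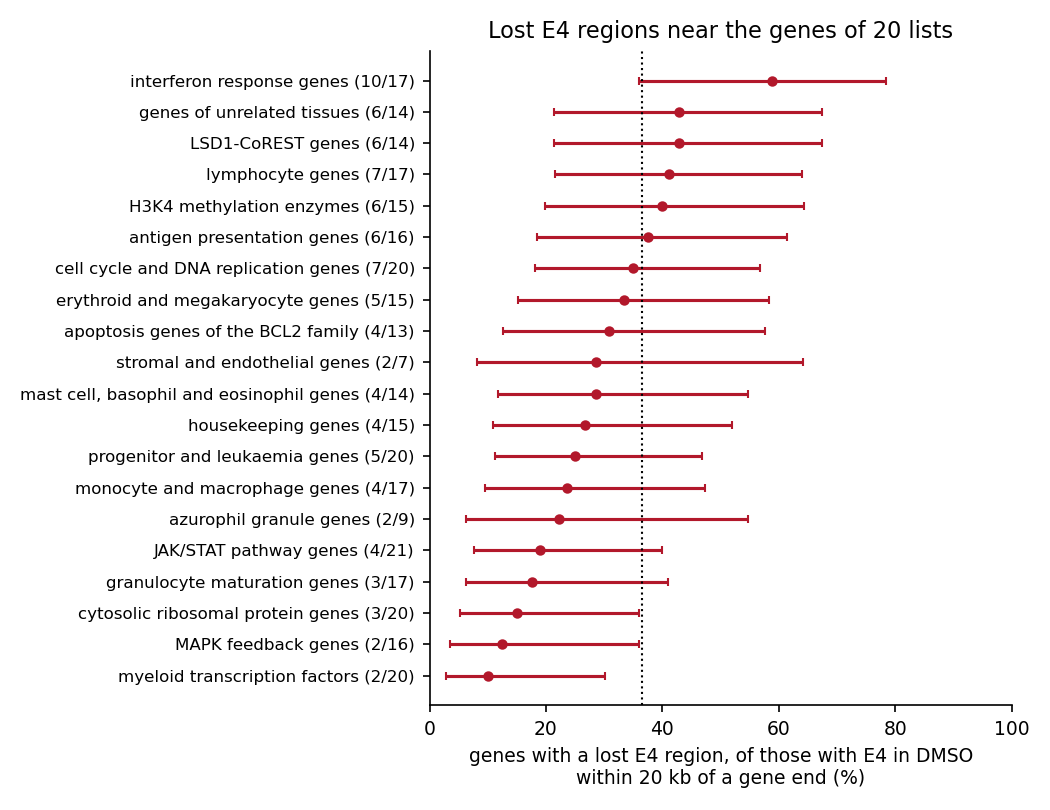
Share of genes with a lost region (x axis, percent), of genes with E4 in DMSO within 20 kb of a gene end, for 20 gene lists (y axis; genes with a region and genes with E4 in brackets). Points are shares, bars 95% Wilson intervals, and the dotted line is the 36.5% of all protein-coding genes. The interferon list lies highest at 58.8% and the myeloid transcription factor list lowest at 10%, and the intervals of 17 lists include the line.

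Loss was of similar extent on every autosome. The share of E4 bins that became E2 or E3 averaged 12.8% ± 0.980 (SD, n = 19 autosomes), with 10.7% on chromosome 11 at the low end and 14.1% on chromosome 18 at the high end. Chromosome X lay outside that range, at 15.1%. The share of regions that were whole segments averaged 48.9% ± 4.83 over the autosomes and was 40.2% on chromosome X. Some regions lay together. Of the 6386, 1247 (19.5%) were within 10 kb of another. A stretch of under 100 kb on chromosome 2 (25214601 to 25313600) held 8 regions, 12.2 kb together. It ran over 15 protein-coding genes, from Stpg3 to Grin1 and including Lrrc26 and Anapc2. E4 in it covered 22 kb in GSK-LSD1 and 48 kb in DMSO. On chromosome 4 (147350201 to 147446000), 6 regions around Zfp978 and Zfp982 made up 15.8 kb, and E4 there covered 2 kb in GSK-LSD1 and 18 kb in DMSO.

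The opposite change covered more area, but it was a smaller share of the states it came from. Bins that were E4 in GSK-LSD1 and E2 or E3 in DMSO were 4.09 times as many as the lost bins, and the same merging gave 20798 regions of 35.2 Mb, 3.26 times the number of lost regions. Their median length was 1400 bp. In bins, 5.41% of DMSO E2 and 0.396% of DMSO E3 became E4, while 12.8% of DMSO E4 became E2 or E3. The ratio of gained to lost bins averaged 4.10 ± 0.467 over the autosomes (SD, n = 19) and was lowest on chromosome 5 at 3.38. All E4 together nevertheless covered less in GSK-LSD1, 59.1 Mb, than in DMSO, 72.6 Mb, since most E4 that changed became start-type or E1.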

How the data were processed

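The authors deposited, per the labels, 1 chromatin state segmentation for each treatment, made from ChIP-seq of 3 histone marks. The submitters' processing notes name Bowtie, with no version, and the genome build mm10, also called GRCm38. The sources used here do not give the segmentation tool, the thresholds on signal or the use of the input. States are discrete calls, and a small difference in signal or depth can switch one. The deposited values are state labels, and reads were not analysed here.

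Both files were expanded to 200 bp bins with Python 3.11.15 and numpy 2.4.6. Regions were chosen by the rule given in the report from the same pair of segmentations they describe, so shares are descriptions. The regions, gene lists and named genes were chosen with earlier results of these data known. Gene ends came from the RefSeq table of GRCm38.p6 and starts from RefSeq promoters. Of 343 list entries, 342 matched. The named genes are the nearest protein-coding genes of the longest regions (15 of any kind, 8 whole, 5 mostly E3, 5 near gene ends), the 10 genes with most region area, up to 4 per list, 12 gene starts in the longest regions, and Cebpa, Csf3r, Kdm1a and Gfi1. A gene that this rule takes is not reported here. Region finding and distances were tested on simulated data. Alternatives changed the minimum length, merging, destination state, sequences used, distal limit, gene types and window size. Sequencing depth is unknown, and Wilson intervals cover counting error only.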

Additional observations from a re-analysis of the deposited data

How the results depend on the processing

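The number of regions depends on the minimum length. It was 12675 at 200 bp and 3518 at 1000 bp, and 2253 with E3 alone or 4130 with E2 alone as the destination. Merging across a gap, leaving out bins near active states, autosomes alone and every sequence kept it within 1.5 times. The share of whole vanished segments was 46.7%, 45.5% and 46.9% at minimum lengths of 200, 400 and 1000 bp, and 42.6% when no E1, E4, E5 or E6 was allowed within 400 bp of the segment in GSK-LSD1. The distal share was 77.4% with a limit of 1 kb, 46.2% with 5 kb, 73.0% with protein-coding genes only, 64.5% at a minimum of 200 bp and 60.0% at 1000 bp. The median distance was 7.90 kb to protein-coding ends, 18.3 kb to gene starts and 3.85 kb at a minimum of 1000 bp. The area share of E3 was 38.3% without bins within 400 bp of E1, E4, E5 or E6 in GSK-LSD1. Regions within 1 kb of E5 or E6 in DMSO were 22.3%. The share of genes with a region was 19.9% in 5 kb windows, 53.4% in 50 kb windows and 39.2% with the gene body added. With these windows 5, 4 and 6 gene lists lay above the background, against 6. The myeloid transcription factor, MAPK feedback and ribosomal lists had intervals that included it at 5 kb (5.26%, 13.3% and 10%) and at 50 kb (40%, 50% and 50%). At 50 kb the intervals of the interferon list (77.8%; 54.8 to 91.0) and the unrelated-tissue list (85.7%; 60.1 to 96.0) lay above it. Of 42 alternatives for the main results, 21 stayed within counting error (shares and medians) or 1.5 times (counts), as did 49 of 61 for single lists. Those for the CG medians and the reverse change were chosen after seeing the data. No paired analysis was possible because each treatment has 1 segmentation.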

Other observations

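Of 1005 miRNA hairpins in the RefSeq table, 91 touched E4 in DMSO and 7 of these (7.69%; 95% Wilson interval 3.78 to 15.04) touched a lost region. The share of all E4 bins lost in stretches of any length, 12.8%, lies inside that interval. They were Mir5126, Mir7686, Mir202, Mir128-2, Mir6949, Mir3547 and Mir7646. Mir202 and Mir7686 are neighbours on chromosome 7 (139957566 to 139957760) and count as 1 place. The mature sequences of Mir128-2 (chromosome 9, 112118636 to 112118711, minus strand) are printed because they are among the best known of the 7, with seed bases 2 to 8 in capitals.
mmu-miR-128-3p: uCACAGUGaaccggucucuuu
mmu-miR-128-2-5p: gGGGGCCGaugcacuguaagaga

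Short motifs were counted on both strands of the 300 bp at gene starts. The C/EBP-type motif TTGCNNAA was in 9 of 60 starts in lost regions that were E2 in GSK-LSD1 (15%) and in 5 of 121 that were E3 (4.13%), against 10.3% of all 21045 starts. Starts of the same state in both segmentations held it in 12.4% for E2, 15.01% for E3 and 10% for E4. The ETS-type motif GAGGAA was in 33.3% of these E2 starts and 24.8% of the E3 starts, against 27.2% of all starts. The RUNX-type motif TGTGGT was in 18.3% and 14.0%, against 14.7% of all starts, and the AP-1-type motif TGACTCA in 8.33% and 3.31%, against 4.69%. These shares are descriptions of letters in this window, and the GC content of the starts, at a median of 55.3% for E2 and 62.0% for E3, moves with them. Its part in the shares was not tested.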
